A study of Mus musculus with 2 samples.

Results

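The Schlafen genes are a family of immune-expressed genes that has expanded in rodents, and the 7 members described here are Slfn1, Slfn2, Slfn3, Slfn4, Slfn5, Slfn8 and Slfn9. They were taken by gene symbol and made up 7 of the 32285 genes counted in each library. The cells came from WT C57/BL6 mice that carried orthotopic liver tumours of Hepa1-6, a mouse hepatoma line grown in the liver of the host. One group received anti-PD-1, an antibody that blocks the inhibitory receptor PD-1 on lymphocytes, and the other received an isotype antibody (IgG) as control. Each group is 1 library of live CD45+ tumour-infiltrating cells, enriched with beads and then sorted by flow cytometry, read with the 10x Genomics 3′ v2 chemistry. Neither the antibody dose nor the time of collection nor the number of mice per library is stated in the labels. With 1 library per antibody no test between the antibodies is possible, and every interval below is a 95% interval that covers counting error only.

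Schlafen proteins restrain growth and translation in immune cells, and many of their genes respond to type I interferon. Mouse members are grouped by protein length: Slfn1 and Slfn2 are short, Slfn3 and Slfn4 are intermediate, and Slfn5, Slfn8 and Slfn9 are long and carry a helicase-like domain. Slfn2 is needed for the quiescence of T cells and monocytes and shields transfer RNAs from cleavage, Slfn1 was described as a brake on T cell growth, and Slfn4 is known as a myeloid gene that interferon induces.

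All 7 genes lie side by side on chromosome 11 (mm10, GENCODE), within 263.8 kb from base 82951349 to base 83215154. Slfn5, Slfn2, Slfn1, Slfn4 and Slfn3 are on the forward strand, and Slfn9 and Slfn8 are on the reverse strand. Because a 3′ library reads the end of a transcript, the last 500 bases of the longest transcript of each gene were compared in windows of 91 bases. Slfn3 shared 5 of its 410 windows (1.22%) with Slfn4, and the other members shared 0 of 410. No member shared exonic bases of its strand with another gene, while Slfn5 overlaps the antisense gene Slfn5os and Slfn2 overlaps the antisense gene Gm20234. The related Slfn14 had 1 UMI (unique molecular identifier, a count of 1 captured RNA molecule), Slfnl1 had 0 and Slfn5os had 25 in all kept cells.

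The promoters of the 3 long members, but not those of Slfn1 to Slfn4, held the core of an interferon element. Promoters of 300 bases, from 250 before to 50 after each RefSeq start (GRCm38.p6), were found for all 7 members and searched on both strands for the core of the interferon-stimulated response element, GAAA, any 2 bases, GAAA, and for the gamma-interferon-activated site, TTCNNNGAA. The first was present in Slfn5, Slfn8 and Slfn9 and in 3.43% of 32817 promoters in the same table. The second was in none of the 7 and in 8.29% of promoters. A further string, ACTTCCTGG, holds the core that ETS transcription factors read; it was picked after the promoters had been read, because Slfn1, Slfn2, Slfn3 and Slfn4 share it. It was in 0.844% of promoters and in none of Slfn5, Slfn8 and Slfn9. The 80 bases around each match are shown 5′ to 3′ on the strand of the gene, with the match in capitals.
Slfn1, chr11:83116710-83116789, forward strand: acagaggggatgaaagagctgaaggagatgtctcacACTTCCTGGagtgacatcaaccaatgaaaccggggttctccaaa
Slfn2, chr11:83065021-83065100, forward strand: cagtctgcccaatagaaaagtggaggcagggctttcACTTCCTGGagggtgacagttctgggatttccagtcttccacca
Slfn3, chr11:83191252-83191331, forward strand: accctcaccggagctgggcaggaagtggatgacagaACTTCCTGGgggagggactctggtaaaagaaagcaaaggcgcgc
Slfn4, chr11:83175077-83175156, forward strand: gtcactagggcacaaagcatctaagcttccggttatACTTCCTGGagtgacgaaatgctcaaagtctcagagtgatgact
Slfn5, chr11:82951912-82951991, forward strand: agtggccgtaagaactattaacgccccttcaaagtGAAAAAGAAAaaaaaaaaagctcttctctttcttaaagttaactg
Slfn8, chr11:83020814-83020893, reverse strand: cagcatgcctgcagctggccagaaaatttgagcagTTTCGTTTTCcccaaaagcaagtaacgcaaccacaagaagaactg
Slfn9, chr11:82991831-82991910, reverse strand: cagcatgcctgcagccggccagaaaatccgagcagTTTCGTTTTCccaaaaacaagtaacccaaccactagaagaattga

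The ETS-type string starts at -74, -55, -42 and -73 relative to the RefSeq start in Slfn1, Slfn2, Slfn3 and Slfn4, in that order. In Slfn1 and Slfn4 the shared run goes on to 15 bases (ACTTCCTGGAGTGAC). The interferon element core starts at -155 in Slfn5, -48 in Slfn8 and -45 in Slfn9, and at -136 from a further RefSeq start of Slfn8. The RefSeq start of Slfn5 lies downstream of the start of its GENCODE gene, and that of Slfn1 lies upstream. The Slfn8 and Slfn9 windows differ at 24 of 80 bases without gaps. They fall out of register just after the match and no alignment with gaps was made, so this count does not measure how far they diverged. A match gives only the letters in the window; no binding data were part of these files.

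Of 10149 and 9683 cell barcodes in the anti-PD-1 and isotype libraries, 9701 and 9278 passed the filters, with median depths of 6301 and 6113 UMIs, and 140 barcode sequences occurred in both libraries. Ptprc, which encodes CD45, had a UMI in 76.6% and 75.3% of cells, and 6 hepatocyte and hepatoma genes gave 40 and 41 UMIs in all, with no cell holding more than 1 of them. Cells were assigned to 17 gates by UMIs of at least 2 to 5 marker genes, and 14 gates held at least 50 cells in each library. C1q and Arg1 macrophages were divided at 10 marker UMIs per 10000, which makes them ranges of a score, with 105 anti-PD-1 and 133 isotype cells between 5 and 10 summed C1qa, C1qb and C1qc UMIs per 10000, and 304 and 299 between 10 and 20. Between 16.4% and 17.4% of cells matched no gate. CD8 T cells numbered 179 with anti-PD-1 and 68 with isotype. Cell numbers per gate are given as found, since 1 sorted library per antibody gives no spread between mice.

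**Figure D1:**
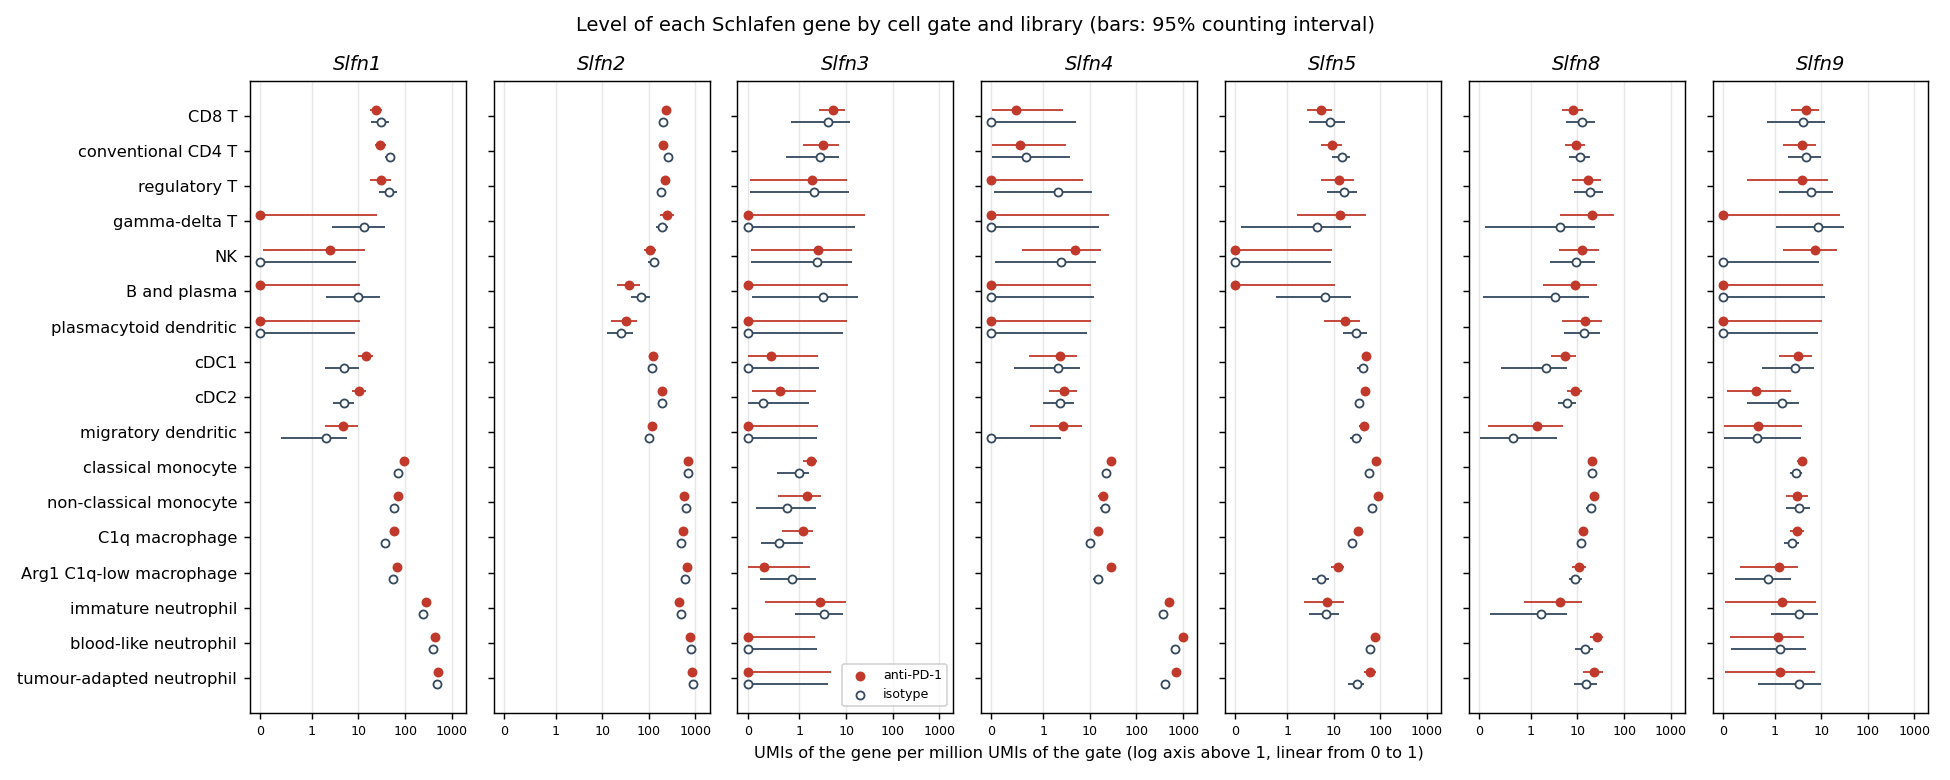
Level of each Schlafen gene in 17 cell gates, in CPM (UMIs of the gene per 1000000 UMIs of the gate), on an axis that is logarithmic above 1 and linear from 0 to 1. Red points are the anti-PD-1 library, open points the isotype library and bars 95% counting intervals. Slfn2 has UMIs in all gates, while Slfn4 is at least 376 in the 3 neutrophil gates and at most 28.9 in the other gates.

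Slfn2 was the member found most widely, with 68334 UMIs and at least 1 UMI in 76.5% of anti-PD-1 and 74.5% of isotype cells. Its level, given throughout in CPM, was highest in the mature neutrophil gates and classical monocytes. Tumour-adapted neutrophils (Ccl3, Ccl4, Cstb and Siglecf, without Retnlg) had 838 CPM in the anti-PD-1 and 879 in the isotype library. Retnlg blood-like neutrophils had 756 and 784, and classical monocytes (Ly6c2, Ccr2, Chil3) had 703 and 686. Arg1 C1q-low macrophages followed with 671 and 599.6. Neighbours among these gates, in order of level, were not separated beyond counting error in both libraries. C1q macrophages had 539 and 498 CPM, below non-classical monocytes (577 and 624) in both libraries beyond counting error, and immature neutrophils had 447 and 487.

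Lymphocytes held less Slfn2. CD8 T cells had 233 and 205 CPM, conventional CD4 T cells 203 and 253, and regulatory T cells 221 and 185. NK cells had 108 and 128, B and plasma cells 38.1 and 68.2, and plasmacytoid dendritic cells 31.6 and 25.3. Neutrophils yielded few UMIs per cell, and the order was another when the count was taken per cell. Classical monocytes held 6.42 and 6.52 Slfn2 UMIs per cell and blood-like neutrophils 1.95 and 1.96, with median depths of 8670 and 8996 against 2377.5 and 2304 UMIs. With every cell thinned to 1000 UMIs, Slfn2 was seen in 45.8% and 48.3% of classical monocytes, 43.1% and 50.8% of blood-like neutrophils, and 21.8% and 19.4% of CD8 T cells.

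Slfn4 was highest in neutrophils. Blood-like neutrophils had 984 CPM in the anti-PD-1 and 665 in the isotype library, tumour-adapted neutrophils 721 and 416, and immature neutrophils (Ngp, Camp, Ltf) 492 and 376. Classical monocytes, the next gate in order, had 28.9 and 21.9 CPM, so a wide gap separated neutrophils from every other gate. T cells of all kinds together held 2 Slfn4 UMIs in each library, and no UMI was counted in B and plasma cells or plasmacytoid dendritic cells.

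Free RNA from neutrophils was gauged with S100a8, an abundant neutrophil transcript. In T cells S100a8 stood at 0.0344% and 0.0266% of its neutrophil level. Slfn4 stood there at 0.0445% and 0.104% of its own, from 2 UMIs in each library. Slfn1 in the same T cells stood at 5.85% and 10.6% of its neutrophil level. In classical monocytes Slfn4 stood at 3.57% and 4.30% of its neutrophil level, beside 0.740% and 1.09% for S100a8. In NK, B and plasma cells together Slfn4 stood at 0.330% and 0.269%, from 2 UMIs and 1 UMI, beside 0.00663% and 0.0127% for S100a8. The share of Slfn4 was above that of S100a8 in all of these cell groups in both libraries. How much of these counts is free RNA was not tested. Slfn4 had a UMI in 15.3% and 12.6% of classical monocytes, or 2.84% and 2.2995% after thinning to 1000 UMIs, against 0.559% and 0% of CD8 T cells before thinning, whose median depths were 9509 and 8094 UMIs. None of 68 isotype CD8 T cells had a Slfn4 UMI, where a count of 0 allows up to 4.09 CPM.

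Slfn1 was highest in neutrophils and was also counted in monocytes and T cells. Tumour-adapted neutrophils had 517 and 473 CPM, blood-like neutrophils 449 and 391.9, and immature neutrophils 282 and 244. The whole immature gate lay below the blood-like gate beyond counting error in both libraries. Immature neutrophils not counted as cycling (defined below) had 427 and 388 CPM, with counting intervals that overlapped those of the blood-like gate. Classical monocytes had 93.6 and 69.2 CPM. Conventional CD4 T cells had 29.5 and 47.9 CPM and CD8 T cells 24.3 and 29.997. NK cells had 1 UMI with anti-PD-1 and 0 with isotype. Plasmacytoid dendritic cells had 0 in both, which allows up to 8.62 and 6.90 CPM. Slfn1 was thus counted readily in alpha-beta T cells and hardly at all in NK cells or plasmacytoid dendritic cells.

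Slfn5, the first of the long members, was highest in monocytes and was also counted in dendritic cells. Non-classical monocytes (Ace, Adgre4, Treml4) had 87.4 and 68.1 CPM, classical monocytes 82.1 and 58.3, and blood-like neutrophils 78.7 and 60.6. cDC1, the cross-presenting dendritic cells, had 48.7 and 42.4, cDC2 47.1 and 34.6, and migratory dendritic cells 44.7 and 30.3. In these 3 dendritic gates Slfn1 was at most 14.3 CPM and Slfn4 at most 2.84. Plasmacytoid dendritic cells had 17.2 and 29.9 CPM of Slfn5, but 11 of the 13 isotype UMIs came from 1 cell. Immature neutrophils had 7.02 and 6.76 CPM, under the mature neutrophil gates, but all 5 anti-PD-1 UMIs came from 1 cell. The 8 isotype UMIs came from 6 cells. NK cells had 0 UMIs in both libraries, which allows up to 7.37 and 7.12 CPM.

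The remaining members were scarce. Slfn8 had 1919 UMIs in all and stood at 20.5 and 20.5 CPM in classical monocytes, 22.6 and 19.4 in non-classical monocytes and 13.4 and 11.9 in C1q macrophages. Slfn9, the reverse-strand neighbour of Slfn8, had 348 UMIs and stayed at 3.89 and 2.91 CPM in classical monocytes. Slfn3 had 145 UMIs. CD8 T cells had the highest Slfn3 level, 5.24 CPM from 11 UMIs and 4.09 from 3 UMIs, and immature neutrophils followed with 2.81 and 3.38 CPM from 2 and 4 UMIs. Both mature neutrophil gates, where its neighbour Slfn4 was highest, had 0 Slfn3 UMIs in both libraries. A count of 0 allows up to 1.78 and 1.93 CPM in blood-like and 3.92 and 3.32 in tumour-adapted neutrophils, a range that covers the level in most other gates.

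Over the 17 gates, the log2(CPM + 1) levels of Slfn1 followed those of Slfn2 (Pearson r = 0.90) and Slfn4 (r = 0.84). Slfn3 and Slfn5 gave the lowest value of the member pairs (r = -0.54). With 145 UMIs in all, Slfn3 is under the minimum of 200 UMIs set for likeness. It had 0 UMIs in both libraries in several gates, blood-like neutrophils among them, so that value rests on few counts. Among 8345 genes, the gene most like Slfn4 was Phospho1 (r = 0.98), followed by G0s2 (r = 0.97) and Cstdc4 (r = 0.96). Gate markers were kept among the genes compared, and G0s2 is a marker of the neutrophil gates, so the gating itself shaped its profile. Slfn2 was most like Lilrb4a (r = 0.93), Slfn1 most like Npepps (r = 0.90) and Slfn5 most like Pgs1 (r = 0.87), with Samhd1 next (r = 0.84). Slfn8 was most like Psenen (r = 0.85) and Slfn9 most like Ptger2 (r = 0.86). These values describe 17 gates that share the same libraries and depths.

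Between the libraries, Slfn4 and Slfn5 were higher with anti-PD-1 in most gates where they could be measured, Slfn1 was higher in myeloid gates and lower in T cell gates, and Slfn2 stayed within 1.5-fold in every measured gate. A ratio was computed for 57 of 98 pairs of member and gate, those with at least 20 UMIs over both libraries in a gate of at least 50 cells per library. In 41 of the 57 the member was higher with anti-PD-1, and in 16 it was lower. The median log2 ratio of all measured genes also lay above 0 in every gate with a ratio. It ran from 0.02 in tumour-adapted neutrophils to 0.12 in cDC2. The share of all genes that were higher was not counted, so the 41 of 57 has no such share beside it. A call asked for a difference of at least 1.5-fold. Of the 57 pairs, 10 were higher, beside 9.2% of 107684 pairs of gene and gate over all genes, and 3 were lower, beside 5.24%. Ratios are log2 of the anti-PD-1 over the isotype level. They compare these libraries, not the antibodies.

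**Figure D2:**
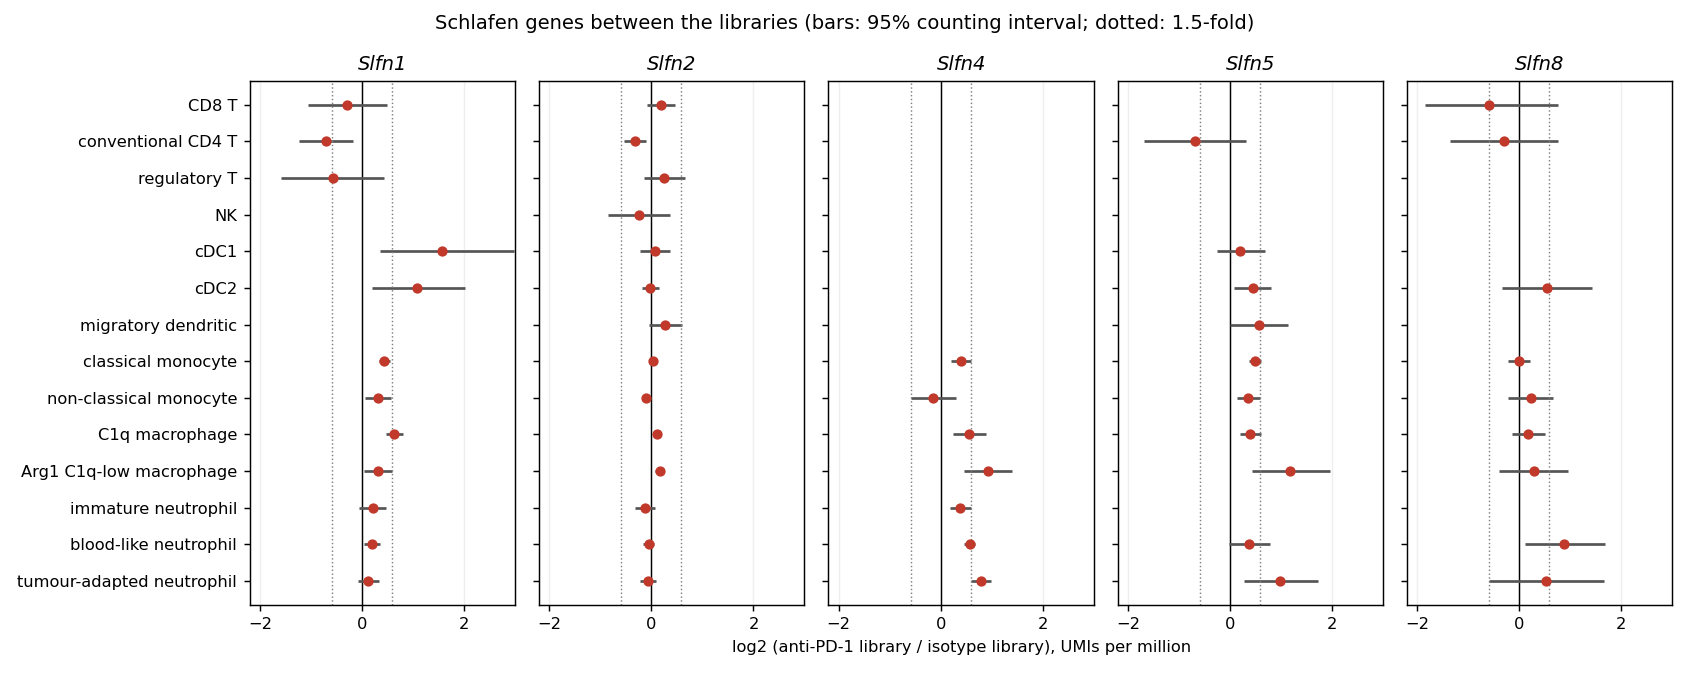
Log2 ratio of the anti-PD-1 over the isotype level of 5 Schlafen genes in 14 gates, with 95% counting intervals. Dotted lines mark 1.5-fold and pairs with fewer than 20 UMIs are left blank. Slfn2 sits near 0 in the large myeloid gates, while Slfn4 and Slfn5 lie to the right of 0 in both mature neutrophil gates and in C1q macrophages.

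Slfn4 in neutrophils combined a high level with a clear difference. In tumour-adapted neutrophils it stood at 721 CPM with anti-PD-1 (552 UMIs in 391 cells) and 416 with isotype (376 UMIs in 483 cells), a log2 ratio of 0.79 (0.60 to 0.99). Blood-like neutrophils gave 0.57 (0.45 to 0.68) and immature neutrophils 0.39 (0.18 to 0.59), which came to 0.09 under stricter gates. The shares of cells lay in the same direction: 71.3% of anti-PD-1 and 59.1% of isotype blood-like neutrophils had a Slfn4 UMI, and 49.6% and 38.2% after thinning. Slfn4 was also higher in classical monocytes (0.40, 0.21 to 0.60), in C1q macrophages (0.56, 0.24 to 0.89) and in Arg1 C1q-low macrophages, where 28.7 CPM stood against 15.1 (0.93, 0.47 to 1.40). Non-classical monocytes were the exception among the measured gates, with 18.7 and 20.7 CPM (-0.14, -0.59 to 0.30).

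The neutrophil alarmin genes S100a8 and S100a9 did not share this direction. S100a8 stood at 9082 CPM with anti-PD-1 and 12186.5 with isotype in tumour-adapted neutrophils (-0.42, -0.47 to -0.38), and at 35329.5 and 49189 in blood-like neutrophils (-0.48, -0.49 to -0.46). S100a9 gave -0.15 (-0.19 to -0.12) and -0.19 (-0.20 to -0.18) in these gates. Both alarmins were also lower with anti-PD-1 in immature neutrophils (-0.54 and -0.06). The part of this difference in neutrophil state was not tested. Median depths were 1896 and 1804 UMIs in tumour-adapted and 10769.5 and 11804 in immature neutrophils.

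Slfn5 was higher with anti-PD-1 in 9 of 10 measured gates. In tumour-adapted neutrophils it stood at 61.3 CPM (47 UMIs) against 31.0 (28 UMIs), a log2 ratio of 0.99 (0.28 to 1.72). Together with Slfn4 it made 2 of 5 measured members that were at least 1.5-fold higher in that gate, where 9.31% of all measured genes were. In Arg1 C1q-low macrophages, tumour macrophages that carry the arginine-degrading enzyme Arg1, Slfn5 stood at 12.2 and 5.40 CPM (1.18, 0.42 to 1.96), and Slfn4 and Slfn5 were 2 of 5 members called, beside 5.24% of genes. That Slfn5 value leaned on 1 anti-PD-1 cell with 10 of its 40 UMIs, and the mean of each cell's CPM gave 0.26 and stricter gates 0.38. Classical monocytes gave 0.49 (0.38 to 0.61), non-classical monocytes 0.36 (0.14 to 0.59), C1q macrophages 0.40 (0.19 to 0.61) and cDC2 0.44 (0.09 to 0.80). These are under 1.5-fold, with intervals above 0. With cells thinned to 1000 UMIs the sign turned in C1q macrophages (-0.08) and non-classical monocytes (-0.16). In blood-like neutrophils the interval of 0.38 reached from -0.01 to 0.77.

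Slfn1 was higher with anti-PD-1 in all 7 measured monocyte, macrophage and neutrophil gates and lower in the 3 measured T cell gates, though the intervals of immature and tumour-adapted neutrophils, CD8 and regulatory T cells included 0 and the CD8 direction was not that of the CD8 T cells outside the cycle. In C1q macrophages it stood at 57.9 CPM (739 UMIs) with anti-PD-1 and 37.4 (498 UMIs) with isotype, a log2 ratio of 0.63 (0.46 to 0.80). Classical monocytes gave 0.44 (0.33 to 0.55), non-classical monocytes 0.31 (0.07 to 0.56) and blood-like neutrophils 0.20 (0.04 to 0.35). Slfn1 and Slfn3 were the 2 of 7 members called higher in C1q macrophages, beside 4.91% of genes, and Slfn3 with 33 and 16 UMIs was the 1 of 7 called higher in classical monocytes, beside 3.7%. Both Slfn3 intervals included 0. In Arg1 C1q-low macrophages Slfn1 gave 0.31 (0.04 to 0.58), and -0.11 with thinned cells.

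In conventional CD4 T cells Slfn1 stood at 29.5 CPM (54 UMIs in 170 cells) with anti-PD-1 and 47.9 (71 UMIs in 185 cells) with isotype, a log2 ratio of -0.70 (-1.24 to -0.17). Slfn1 and Slfn5 were 2 of 4 members at least 1.5-fold lower there, beside 6.57% of genes, though the interval of Slfn5 (-0.68, -1.68 to 0.30) included 0. All 4 measured members lay below 0 in these cells. In conventional CD4 T cells that were not cycling Slfn1 gave -0.60 (-1.21 to -0.0030), with 9 of the 41 anti-PD-1 UMIs in 1 cell. In CD8 T cells Slfn1 gave -0.30 (-1.05 to 0.49). Cycling cells were 74 of the 179 CD8 T cells with anti-PD-1 and 19 of the 68 with isotype, and Slfn1 in the others stood at 43.4 CPM (36 UMIs) and 39.1 (15 UMIs), higher with anti-PD-1 though within overlapping counting intervals. In the whole CD8 gate Slfn8, with 17 and 9 UMIs, was the 1 of 3 members called lower (-0.60, -1.84 to 0.75), beside 6.76% of genes. In the cDC gates Slfn1 was low but higher with anti-PD-1: 32 against 7 UMIs in cDC1 (1.56, 0.35 to 2.98) and 33 against 17 in cDC2 (1.08, 0.19 to 2.01). In cDC1, 4 of the 7 isotype UMIs came from 1 cell, and the ratio was 0.11 under stricter gates and 0.12 over clusters. Slfn1 was the 1 member called higher in each, of 3 measured in cDC1 and 4 in cDC2, beside 12.3% and 8.93% of genes.

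Slfn2, the most abundant member, differed little. Its log2 ratio was 0.03 (-0.0018 to 0.07) in classical monocytes, from 13365 and 11069 UMIs, -0.05 (-0.17 to 0.06) in blood-like neutrophils and 0.19 (-0.08 to 0.46) in CD8 T cells. C1q macrophages gave 0.12 (0.07 to 0.16) and Arg1 C1q-low macrophages 0.16 (0.08 to 0.24), while non-classical monocytes gave -0.11 (-0.19 to -0.03) and conventional CD4 T cells -0.32 (-0.53 to -0.11). Thinning turned the sign in C1q macrophages (-0.0064) and conventional CD4 T cells (0.07). None of its 14 ratios reached 1.5-fold, though thinning took migratory dendritic cells from 0.27 to -0.59. Slfn8 was the 1 of 5 members called higher in blood-like neutrophils, with 26.1 CPM (44 UMIs) against 14.2 (22 UMIs) and a log2 ratio of 0.88 (0.11 to 1.69), beside 9.93% of genes. In classical monocytes Slfn8 stood at 20.5 CPM in both libraries, with an interval of the ratio from -0.22 to 0.22.

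A list of 24 type I interferon response genes, 23 of them counted in these libraries, was set beside the family. In classical monocytes 22 of 22 measured list genes were higher with anti-PD-1, with a median log2 ratio of 0.33 against 0.06 for all measured genes. C1q macrophages had 22 of 23 higher (median 0.48 against 0.06) and blood-like neutrophils 20 of 21 (0.49 against 0.09). Tumour-adapted neutrophils had 18 of 19 higher with a median of 0.82 against 0.02. Slfn4 and Slfn5, at 0.79 and 0.99, lay near that median, while Slfn1, at 0.13, and Slfn2, at -0.07, lay far below it.

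In tumour-adapted neutrophils Isg15, a ubiquitin-like antiviral protein, stood at 1162 and 941 CPM (0.30, 0.17 to 0.44) and Rsad2, the antiviral enzyme viperin, at 235 and 150.4 (0.64, 0.31 to 0.98). Ifit1, which binds foreign RNA, stood at 106 and 17.7 CPM (2.58, 1.79 to 3.45). All 3 were higher with anti-PD-1.

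In T cells the list did not lie above the other genes. Conventional CD4 T cells had 11 of 21 list genes higher and a median of 0.01 against 0.07, and Isg15 stood at 923 CPM with anti-PD-1 and 1478 with isotype (-0.68, -0.77 to -0.59). Regulatory T cells had 15 of 18 list genes lower, with a median of -0.41 against 0.05, and Slfn1 there gave -0.57 (-1.59 to 0.43). CD8 T cells had 12 of 21 higher (median 0.03 against 0.11). Of the 3 members whose promoters hold the interferon element core, Slfn5 gave 0.40 (0.19 to 0.61) in C1q macrophages, Slfn8 gave 0.17 (-0.15 to 0.50) and Slfn9 gave 0.39 (-0.33 to 1.12), with intervals that overlap. In cDC1, where Slfn5 gave 0.20 (-0.26 to 0.68), the list median was 0.02 against 0.11 for all measured genes. In the C1q gate all 7 members were higher. Of those whose promoters lack the interferon element core, Slfn1 gave 0.63, Slfn2 0.12, Slfn3 0.97 (-0.36 to 2.41) and Slfn4 0.56. The Slfn9 ratio there was -0.74 with the mean of each cell's CPM. The part of the element in these ratios was not tested.

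**Figure D3:**
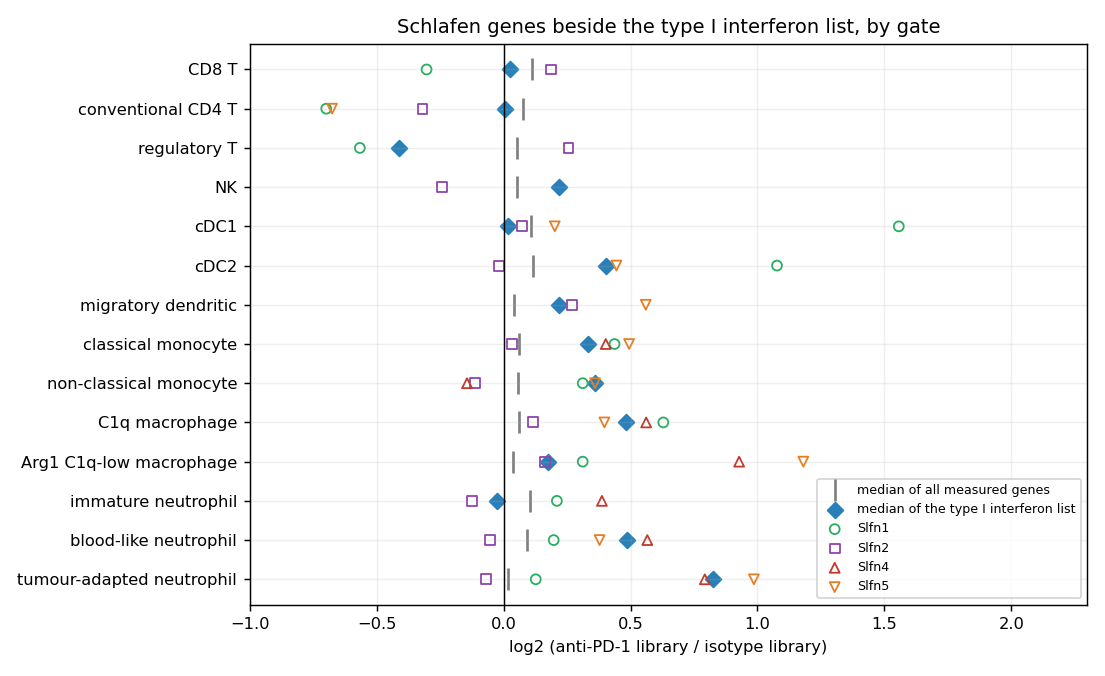
Log2 ratio of the anti-PD-1 over the isotype library by gate for Slfn1, Slfn2, Slfn4 and Slfn5 (open symbols), the median of the type I interferon list (diamonds) and the median of all measured genes (grey bars). In tumour-adapted neutrophils the list median is 0.82 and Slfn4 and Slfn5 lie at 0.79 and 0.99, while Slfn2 lies at -0.07.

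Of 11 genes for interferon receptors and their signalling proteins, 11 of 11 were higher in classical monocytes (median 0.21 against 0.06 for all measured genes). C1q macrophages had 9 of 11 higher (0.24 against 0.06) and tumour-adapted neutrophils 7 of 10 (0.17 against 0.02). CD8 T cells had 7 of 10 higher (0.27 against 0.11). Conventional CD4 T cells had 4 of 10 higher (-0.10 against 0.07), and regulatory T cells 4 of 10 (-0.05 against 0.05). Of 9 lymphocyte quiescence genes such as Klf2 and Foxo1, which hold T cells at rest, 5 of 9 were higher in CD8 T cells (median 0.39 against 0.11 for all genes) and 3 of 9 in conventional CD4 T cells (-0.14 against 0.07). Il7r, the interleukin 7 receptor, was the lowest of them in CD8 T cells, at 21.4 and 59.99 CPM (-1.48, -2.12 to -0.85). Genes for transfer RNA cleavage and its inhibition, the process in which Slfn2 acts, gave 5 of 5 measured genes higher in C1q macrophages with a median of 0.11 against 0.06, and 5 of 5 in classical monocytes with 0.12 against 0.06. No single interval lay above 0 in the C1q gate, and non-classical monocytes had 3 of 5 higher with a median of 0.0017 against 0.06.

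Cycling cells, those with UMIs of at least 2 of 6 proliferation genes such as Mki67 and Top2a, had lower CPM of Slfn1 and Slfn2 than the other cells among T cells and immature neutrophils. In T cells Slfn1 stood at 12.1 CPM in 152 cycling and 37.7 in 389 other cells of the anti-PD-1 library, a log2 ratio of -1.64 (-2.25 to -1.07). The isotype library gave 20.9 and 47.8 CPM (-1.19, -1.85 to -0.58). Slfn2 was lower too, with 180.1 against 257 CPM (-0.51, -0.68 to -0.34) and 153 against 246 (-0.68, -0.92 to -0.45). These are shares of a larger RNA pool: the median depth was 16199 UMIs in cycling and 6020 in other T cells of the anti-PD-1 library, and Slfn2 UMIs per cell were higher in the cycling cells, 3.24 against 1.86. Slfn1 UMIs per cell were 0.217 against 0.272. In the isotype library Slfn2 gave 2.22 against 1.60 UMIs per cell and Slfn1 0.303 against 0.312. At least 1.5-fold lower in cycling T cells were 2 of 5 measured members in the anti-PD-1 library, where 19.9% of genes were. These were Slfn1 and Slfn5 (-1.33, -2.43 to -0.33). In the isotype library 3 of 3 members with UMIs in both subsets were, where 16.3% of genes were. Slfn5 had 0 UMIs in the 89 cycling and 41 in the 382 other isotype T cells, so it has no ratio. It is not among those 3, although the share over all genes includes such genes.

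Immature neutrophils showed lower levels in cycling cells for all 3 measured members. Slfn4 stood at 68.3 CPM in 14 cycling and 788 in 44 other cells of the anti-PD-1 library (-3.53, -4.26 to -2.88), and at 118 and 588 in the isotype library (-2.32, -2.73 to -1.93). Slfn1 stood at 75.1 and 427 CPM (-2.51, -3.22 to -1.87) and at 69.3 and 388 (-2.49, -3.03 to -1.98). Here the count per cell was lower too: cycling cells of the anti-PD-1 library held 1.43 Slfn4 UMIs each and the others 7.50, at median depths of 21973 and 9484.5 UMIs. The difference in Slfn2 was smaller (-1.11 and -0.65). At least 1.5-fold lower were 3 of 3 members in each library, beside 21.3% of genes with anti-PD-1 and 18.4% with isotype. In cDC1 Slfn5 was lower in cycling cells of both libraries, with 23.4 against 62.1 CPM (-1.41, -2.23 to -0.67) and 20.8 against 50.2 (-1.27, -2.55 to -0.19). The isotype cycling value rests on 8 UMIs in 15 cells, with 6 of them in 1 cell. Slfn2 in cDC1 gave -0.48 (-0.89 to -0.09) with anti-PD-1 and 0.16 (-0.36 to 0.66) with isotype. Slfn1, measured there only with anti-PD-1, gave -0.66 (-2.02 to 0.55).

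Slfn9 had higher CPM in cycling C1q macrophages and classical monocytes of both libraries, and in cycling T cells of the anti-PD-1 library. In C1q macrophages it stood at 12.8 CPM in cycling and 2.55 in other cells of the anti-PD-1 library (2.33, 0.99 to 3.48) and at 7.47 and 2.00 in the isotype library (1.90, 0.33 to 3.22). Classical monocytes gave 19.0 against 3.46 CPM (2.46, 1.33 to 3.43) and 12.4 against 2.47 (2.33, 1.10 to 3.41). T cells of the anti-PD-1 library gave 6.94 against 2.49 (1.48, 0.17 to 2.97). The cycling values rest on 6 to 19 UMIs each, and no single cell held more than 3 of them. Median depth was 9182.5 UMIs in cycling and 7349.5 in other C1q macrophages of the anti-PD-1 library, and Slfn9 UMIs per cell were 0.133 and 0.0200. In C1q macrophages Slfn9 was the 1 of 6 measured members called higher in cycling cells in each library, beside 18.3% and 15.8% of genes. In classical monocytes 2 of 7 and 1 of 6 were called, beside 30.7% and 25.5%, the further one being Slfn3 from 3 UMIs. In both gates the counts of members called lay near or below the shares over all genes.

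**Figure D4:**
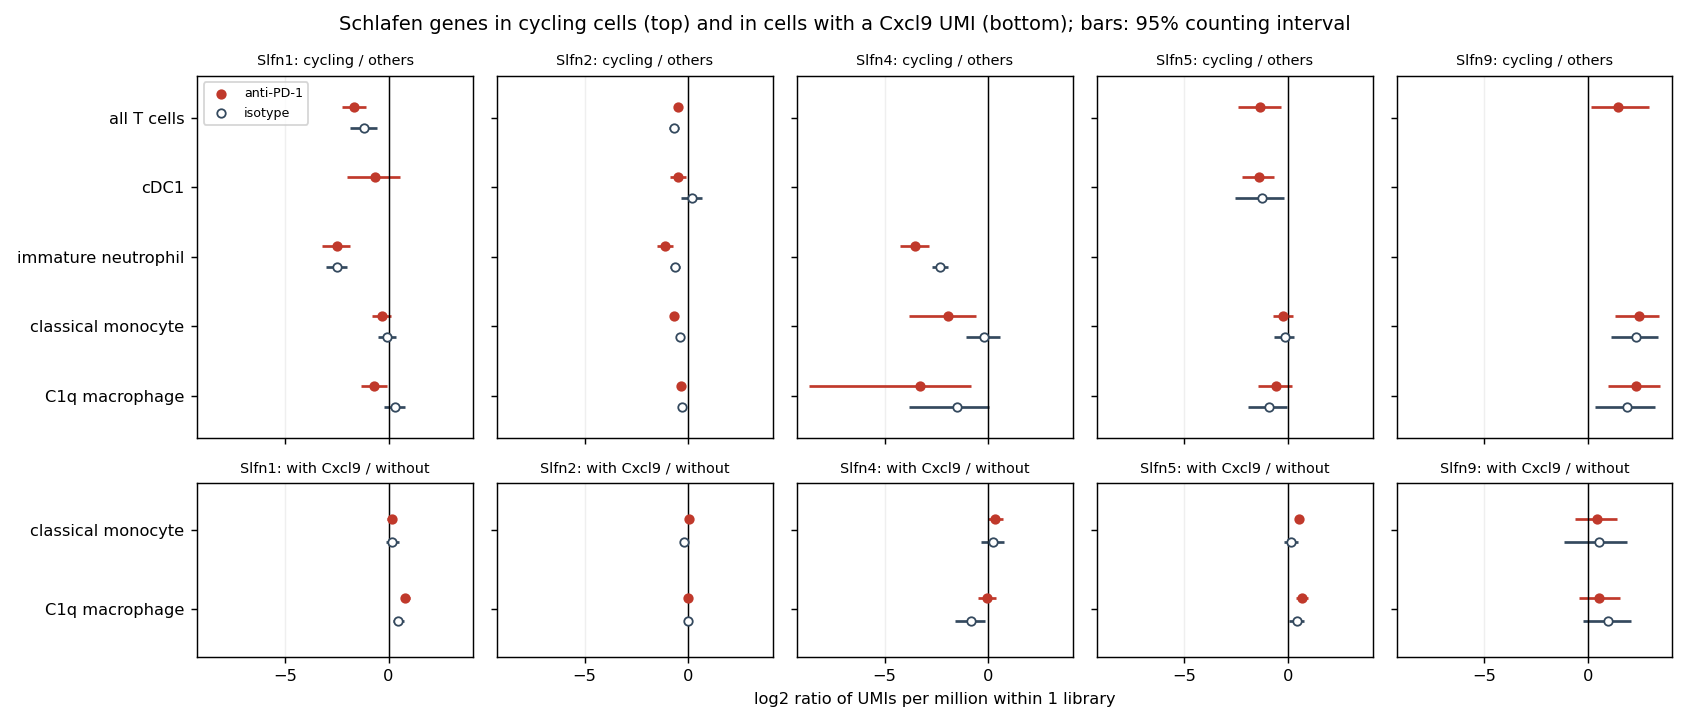
Log2 ratio within 1 library of cycling over other cells (top) and of cells with a Cxcl9 UMI over cells without (bottom) for 5 Schlafen genes, with 95% counting intervals. Red points are the anti-PD-1 and open points the isotype library. Pairs with fewer than 20 UMIs, or with 0 UMIs in a subset (Slfn5 in cycling isotype T cells), are left blank. Slfn9 lies above 0 and Slfn2 below 0 in cycling C1q macrophages and classical monocytes of both libraries.

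Cxcl9 is a chemokine that interferon gamma induces in macrophages, and C1q macrophages with a Cxcl9 UMI had more Slfn1 and Slfn5. A Cxcl9 UMI was found in 34.8% of anti-PD-1 and 21.8% of isotype C1q macrophages. Slfn1 stood at 78.2 CPM in cells with Cxcl9 and 44.7 without in the anti-PD-1 library (0.81, 0.59 to 1.02), and at 47.6 and 34.1 in the isotype library (0.48, 0.20 to 0.76). Slfn5 gave 0.68 (0.40 to 0.97) and 0.42 (0.07 to 0.76). Slfn2 gave 0.00076 (-0.07 to 0.07) and -0.04 (-0.12 to 0.04). Slfn4 was not higher in cells with Cxcl9, with 14.96 against 15.3 CPM and 6.45 against 11.5. At least 1.5-fold higher in Cxcl9 cells were 2 of 6 measured members with anti-PD-1, beside 8.8% of genes, and 1 of 6 with isotype, beside 7.96%. The members called with anti-PD-1 were Slfn1 and Slfn5, while the one called with isotype was Slfn9 (0.96, -0.21 to 2.08). At least 1.5-fold lower were 0 of 6 with anti-PD-1, beside 7.57%, and 1 of 6 with isotype, beside 8.39%, which was Slfn4 (-0.84, -1.59 to -0.16). Other gates did not share the pattern of Slfn1 and Slfn5 throughout. In Arg1 C1q-low macrophages Slfn1 gave 0.41 (-0.30 to 1.04) and -0.24 (-0.996 to 0.44), and Slfn5 gave -0.68 (-3.78 to 1.27) and -0.16 (-3.29 to 1.86). In classical monocytes Slfn1 gave 0.15 (-0.06 to 0.36) and 0.18 (-0.14 to 0.48), and Slfn5 gave 0.53 (0.33 to 0.73) and 0.16 (-0.19 to 0.49). C1q macrophages with Cxcl9 were also deeper, with medians of 8350 against 6881.5 UMIs for anti-PD-1 and 9516 against 8065.5 for isotype. The part of depth in these values was not tested.

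Among C1q macrophages with Cxcl9, Slfn1 gave 0.72 (0.44 to 0.99) between the libraries, and among those without it gave 0.39 (0.17 to 0.61). Slfn4 gave 1.21 (0.50 to 1.99) and 0.41 (0.03 to 0.79), and Slfn5 gave 0.47 (0.12 to 0.82) and 0.20 (-0.07 to 0.48). In classical monocytes without a Cxcl9 UMI, Slfn1, Slfn4 and Slfn5 stood at 0.43 (0.32 to 0.55), 0.38 (0.17 to 0.59) and 0.44 (0.31 to 0.56). The values of the whole gate were 0.44, 0.40 and 0.49.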

How the data were processed

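The authors deposited unnormalized UMI counts for each gene in each called cell. Per the file headers they were made with Cell Ranger 5.0.1, whereas version 2.1.1, with the mm10 build, stands in the submitters' processing notes. How cells were called is not stated. The libraries held 72148493 (anti-PD-1) and 67520433 (isotype) UMIs.

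The filter asked for 500 UMIs, 200 genes and no more than 10% mitochondrial UMIs per cell, and 313 and 288 cells with a scrublet score above 0.25 (scanpy 1.11.5) were removed as doublets. UMIs were summed per gate and library and scaled to the gate total. Levels carry exact Poisson and ratios exact conditional binomial 95% intervals. A count of 0 allows up to 3 counts. The ratio script was tested on simulated Poisson counts without clustering of UMIs within cells. Such counts cannot show how the intervals hold where 1 cell carries many of the UMIs. Every member was named, and a ratio asked for at least 20 UMIs over both libraries in gates of at least 50 cells each. Likeness was computed for members with at least 200 UMIs, and other genes come from 4 lists. Members were taken by symbol, but the family and the lists were chosen with earlier results of these data known. Alternatives were mitochondrial limits of 5% and 20%, no doublet removal, stricter gates, Leiden clusters made without Schlafen genes, the mean of each cell's CPM, thinning to 1000 UMIs, TMM scaling (edgeR 4.0.16) and UMI minimums of 1 and 50.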

Additional observations from a re-analysis of the deposited data

Results flagged for a closer look

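Slfn1 and Slfn2 had log2 ratios of anti-PD-1 over isotype whose counting intervals lay on opposite sides of 0 in different gates. The difference between the gates was not tested, since each antibody has 1 library. For Slfn1 the ratio was 1.56 in cDC1, 1.08 in cDC2, 0.63 in C1q macrophages, 0.44 in classical monocytes, 0.31 in non-classical monocytes, 0.31 in Arg1 C1q-low macrophages and 0.20 in blood-like neutrophils, against -0.70 in conventional CD4 T cells. For Slfn2 it was 0.16 in Arg1 C1q-low macrophages and 0.12 in C1q macrophages, against -0.32 in conventional CD4 T cells and -0.11 in non-classical monocytes.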

How the results depend on the processing

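No paired analysis was possible because each antibody has 1 library. The log2 ratio of the highest over the median gate moved beyond its counting interval for Slfn1 under stricter gates (3.92), clusters (3.61) and thinning (3.98), for Slfn2 under clusters (1.77), the mean of each cell's CPM (1.82) and thinning (1.58), for Slfn4 without doublet removal (7.68) and under stricter gates (7.76), clusters (7.39), mean CPM (8.43) and thinning (6.49), for Slfn5 under clusters (1.89) and thinning (2.71), and for Slfn8 under thinning (1.57). Between the libraries, thinning gave a changed sign for Slfn2 in conventional CD4 T cells (0.073) and C1q macrophages (-0.0064), Slfn5 in non-classical monocytes (-0.16) and C1q macrophages (-0.079), Slfn1 in Arg1 C1q-low macrophages (-0.11), and the median of the interferon receptor and signal list there (-0.078). Among ratios whose interval included 0, thinning also changed the sign of Slfn2 in migratory dendritic cells (0.27 to -0.59), regulatory T cells (0.26 to -0.37), cDC1 (0.07 to -0.11) and cDC2 (-0.02 to 0.21), and of Slfn8 in classical monocytes (-0.00067 to 0.021). Clusters changed it, among other cases, for Slfn2 in NK cells (-0.24 to 0.33), cDC1 (0.07 to -0.49) and immature neutrophils (-0.12 to 0.081), Slfn8 in Arg1 C1q-low macrophages (0.28 to -0.044) and Slfn4 in non-classical monocytes (-0.14 to 0.040), and the mean of each cell's CPM for Slfn9 in C1q macrophages (0.39 to -0.74). Thinning also gave -0.068 for Slfn2 and 0.74 for Slfn5 in classical monocytes, 0.83 for Slfn1 in non-classical monocytes, 0.91, 1.51 and 0.62 for Slfn1, Slfn4 and Slfn8 in C1q macrophages, 0.061 for Slfn2 in Arg1 C1q-low macrophages and -0.26 for Slfn2 in blood-like neutrophils. Clusters gave -0.017 and 0.21 for Slfn2 in classical monocytes and C1q macrophages and 0.41 for Slfn4 in blood-like neutrophils, and TMM scaling gave -0.018 and 0.055 for Slfn2 in the same 2 gates. TMM moved ratios by over 0.1 in cDC2 (-0.11) and immature neutrophils (-0.15). The 10 pairs called higher became 17 at a minimum of 1 UMI. The 3 called lower became 5 over clusters, 5 with mean CPM, 11 at 1 UMI and 1 at 50 UMIs. Thinned counts are few, and the cause of these shifts was not tested.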
